A study of Mus musculus with 5 samples.

Results

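The 10 genes described here control entry into and exit from the cell cycle in G1: the D-type cyclins Ccnd1, Ccnd2 and Ccnd3, the E-type cyclins Ccne1 and Ccne2, the kinases Cdk4 and Cdk6, and the inhibitors Cdkn1b, Cdkn2a and Cdkn2c. They were chosen by name, each matched 1 row of the deposited table of 54532 genes, and all 10 were among the 16411 genes tested. RNA was sequenced from 5 libraries of neurospheres, cell clusters that neural stem cells form in suspension culture, grown from the hippocampus of C57BL/6 mice at postnatal day 0. The 2 control libraries had the genotype hGFAPCre+, Arid1b+/+ and the 3 heterozygous libraries hGFAPCre+, Arid1b flox/+, so all 5 carried the hGFAP-Cre transgene, whose promoter is active in neural progenitors and astrocytes. Cells of 1 mouse were spread over 2 wells with B27, FGF-2 at 20 ng/ml and EGF at 20 ng/ml, and the spheres were collected on day 7. Whether the libraries of a group stem from different mice is not labelled. The p-values therefore rest on library-to-library spread alone, part of which may be technical.

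In G1, growth factor signals raise the D-type cyclins, which pair with CDK4 or CDK6 and begin to phosphorylate the retinoblastoma protein. This frees E2F transcription factors, which switch on the E-type cyclins, the partners of CDK2, and the genes of DNA replication. The INK4 inhibitors, among them the products of Cdkn2a and Cdkn2c, bind CDK4 and CDK6 themselves, while p27, the product of Cdkn1b, binds cyclin and kinase complexes and is known in the nervous system for holding cells out of the cycle. Cyclin D1 and cyclin D2 are the main D-type cyclins of neural progenitors, and cyclin D2 is known to be needed for adult hippocampal neurogenesis.

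Recovered depth was 19833803 to 25494722 reads per library, and each of the 10 genes had at least 105 reads in every library. Any 2 heterozygous libraries correlated across genes at 0.988 to 0.989, whereas the 2 controls correlated at 0.952 and control replicate 1 lay at 0.927 to 0.930 from the heterozygous libraries. Since genes are no replicates, these correlations only describe the libraries. Values without control replicate 1 or 2 are given below where they bear on a result. Arid1b, the targeted gene, had normalized counts of 1510 and 1730 in controls against 1102, 1145 and 1003 in heterozygous ones. The log2 fold change was -0.58 (limma adjusted p = 0.0701), with -0.68 without control replicate 1 and -0.48 without control replicate 2. DESeq2 on the recovered reads gave an adjusted p of 0.0102, and the authors' deposited table held 0.0200. Loss of the floxed exon itself cannot be read from counts per gene. The labelled cell type was neural progenitor cells. All 10 progenitor markers looked for, among them Nes and Sox2, were detected in every library, as were all 10 neuron markers and all 6 astrocyte markers.

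Ccnd1 and Ccnd2, the cyclins that carry growth factor signals to the cycle, had higher normalized counts in every heterozygous library than in either control, on average 2.20-fold and 1.62-fold. Cdkn1b, an inhibitor of cyclin and kinase complexes, was lower in every heterozygous library, with group means 2.01-fold apart. Ccne1 was also higher and Ccnd3 lower in all 3, and the other 5 genes overlapped between the groups. The 2 controls themselves differed 1.10-fold to 4.54-fold in these genes. None of the 10 genes passed the test over all genes (limma adjusted p under 0.05), where 2.84% of all genes tested did, 1.9% higher and 0.944% lower in heterozygous libraries. At an unadjusted p under 0.05, 3 of the 10 were called, Ccnd1, Ccnd2 and Cdkn1b, against 26.1% of all genes (13.8% higher, 12.4% lower), and edgeR on the recovered reads called none at an adjusted p under 0.05 (2.5% of all genes, 1.47% higher and 1.02% lower). DESeq2 on the recovered reads called the same 3, Ccnd1 and Ccnd2 higher and Cdkn1b lower, where it called 14.4% of all genes, 7.36% higher and 7.05% lower. The authors' deposited table, made from the same libraries, also had those 3 under 0.05, against 12.3% of its genes. The median log2 fold change of the 10 was -0.05 and that of all genes tested 0.01. The groups did not overlap for 5 of the 10, 3 higher and 2 lower, as for 46.7% of all genes tested (23.4% higher, 23.3% lower).

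**Figure D1:**
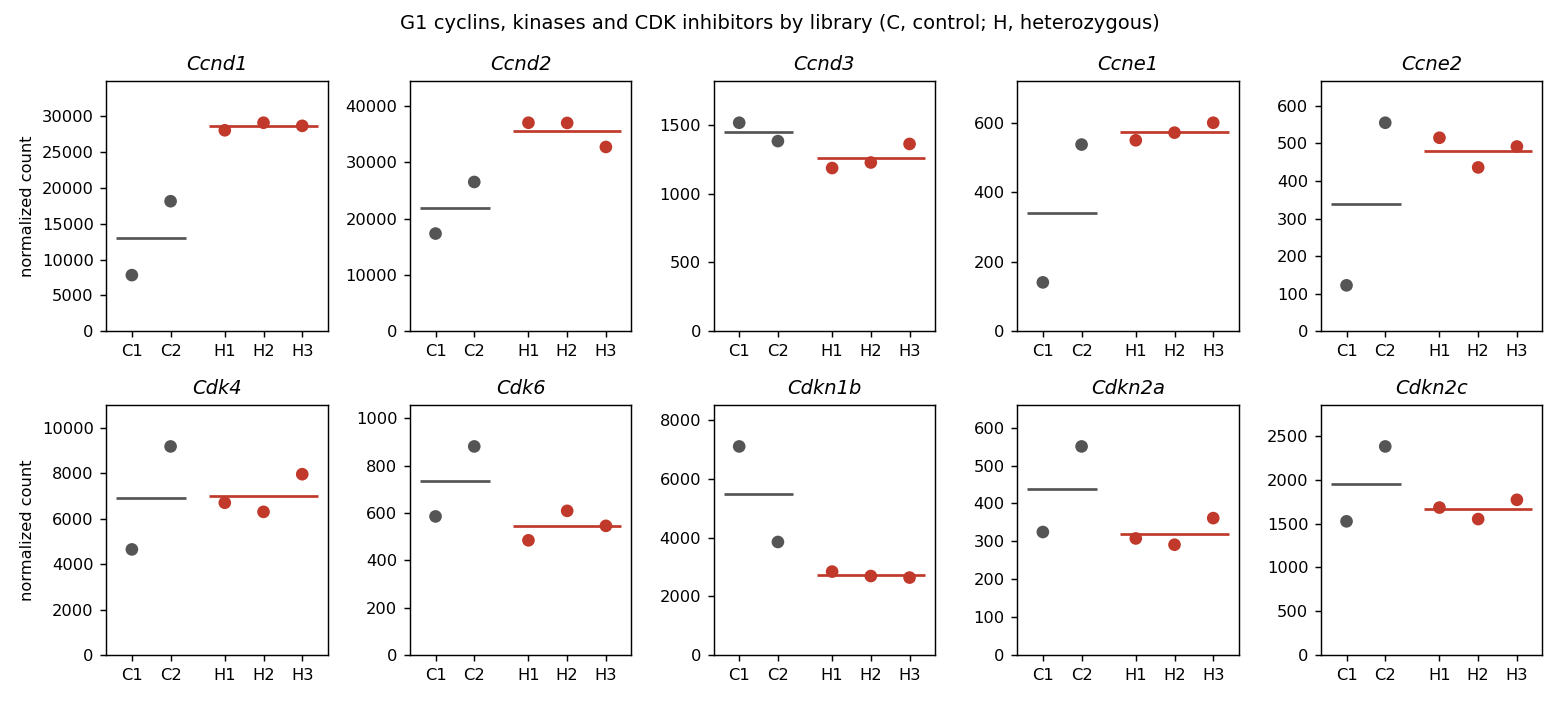
Normalized counts (y axis, from 0) of the 10 genes in each library (x axis; C1 and C2, control replicates 1 and 2; H1 to H3, heterozygous replicates 1 to 3), with horizontal lines at the group means. Ccnd1 sits between 28021 and 29075 in the heterozygous libraries, above both controls, Cdkn1b between 2637 and 2840, below both, while Ccne1 and Ccne2 are low in C1 alone.

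Ccnd1 encodes cyclin D1, the D-type cyclin most directly driven by mitogens (chromosome 7 from 144929931 to 144939925, - strand). Its normalized counts were 7822 and 18128 in controls against 28021, 29075 and 28641 in heterozygous ones. The heterozygous libraries lay within a narrow range above both controls, and the controls were 2.32-fold apart. Control libraries averaged 12975 ± 7288 (SD, n = 2) and heterozygous ones 28579 ± 529 (SD, n = 3). The log2 fold change was 1.26 (SE 0.34, 95% interval 0.45 to 2.07, limma adjusted p = 0.0879). It was 0.66 without control replicate 1 (limma adjusted p = 0.0117) but 1.87 without control replicate 2 (limma adjusted p = 5.1e-05), fits in which the remaining control is assumed to vary like the heterozygous libraries. In the authors' deposited table the log2 fold change was 1.01 with an adjusted p of 0.00804. Ccnd1 overlaps LTO1 on the other strand, and whether the authors counted by strand is not given in the sources used here, so some of its reads may belong to that gene.

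Ccnd2 encodes cyclin D2 (chromosome 6 from 127125162 to 127152193, - strand). It had 17331 and 26488 normalized counts in controls against 37005, 36966 and 32703 in heterozygous ones. All 3 heterozygous values were again above both controls, with control replicate 1 lowest. The means of 21909 ± 6475 (SD, n = 2) and 35558 ± 2473 (SD, n = 3) gave a log2 fold change of 0.73 (SE 0.22, 95% interval 0.21 to 1.25, limma adjusted p = 0.108). Without control replicate 1 it was 0.42 (limma adjusted p = 0.0772), so this gene, unlike Ccnd1, did not pass against control replicate 2 alone. Without control replicate 2 it was 1.03 (limma adjusted p = 0.000785). For comparison, 0.66 with an adjusted p of 0.0284 stood in the authors' deposited table. Ccnd2 overlaps 2 antisense genes.

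Ccnd3, the gene of cyclin D3 (chromosome 17 from 47505051 to 47599691, + strand), went the other way in sign. Its normalized counts were 1514 and 1381 in controls against 1185, 1225 and 1360 in heterozygous ones. The groups did not overlap, but heterozygous replicate 3 and control replicate 2 were nearly level. The log2 fold change was -0.20 (SE 0.13, 95% interval -0.52 to 0.11, limma adjusted p = 0.358). Leaving out control replicate 1 gave -0.14, leaving out control replicate 2 gave -0.27, and Ccnd3 was the member whose 2 controls were closest, at 1.10-fold. Ccnd3 overlaps Bysl on the other strand.

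Because the D-type cyclins are alternatives for the same kinases, their levels were compared within each library per kilobase of annotated exon, a scale on which the library's size factor cancels in ratios. These ratios were defined after the values of the genes had been seen. Ccnd1 made up 45.2% and 56.4% of the summed D-type cyclin level in controls against 59.4%, 60.3% and 62.6% in heterozygous ones. The share of Ccnd2 was 50.1% and 41.3% in controls against 39.3%, 38.4% and 35.8% in heterozygous ones, and that of Ccnd3 4.69%, 2.31%, 1.35%, 1.36% and 1.60% in the same order. Cyclin D1 thus took a larger share of D-type cyclin RNA in each heterozygous library than in either control, and control replicate 2 lay nearer to the heterozygous libraries than control replicate 1. The Ccnd2 level was 1.11 times that of Ccnd1 in control replicate 1 and 0.731 times in control replicate 2, and 0.571 to 0.661 times in the heterozygous libraries. With exon lengths of the basic annotation, the mean Ccnd3 share was 8.86% in controls and 3.82% in heterozygous libraries, so its size depends on the length taken, while control values stayed above heterozygous ones.

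Of the ratios formed, the summed D-type cyclin level over the summed level of the kinases Cdk4 and Cdk6 was picked out because its 2 controls were closest. It was 2.50 and 2.36 in controls against 4.78, 5.17 and 3.90 in heterozygous ones. The groups were separated by more than the spread within either, with means of 2.43 ± 0.0959 (SD, n = 2) and 4.61 ± 0.647 (SD, n = 3). Nearly all of the kinase level was Cdk4, at a control mean of 2129 per kilobase against 52.4 for Cdk6. Control replicate 2 was above control replicate 1 both in Cdk4 (2827 against 1431) and in the D-type cyclin sum (6822 against 3676). The exact permutation test of this ratio, with the one-sided p doubled, gave p = 0.2 (two-sided). This form of the test gives no smaller p for 3 against 2 libraries. Every ratio without overlap reaches that value, so it does not grade the separation. With exon lengths of the basic annotation the means were 2.17 and 3.94 and the groups again did not overlap.

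**Figure D2:**
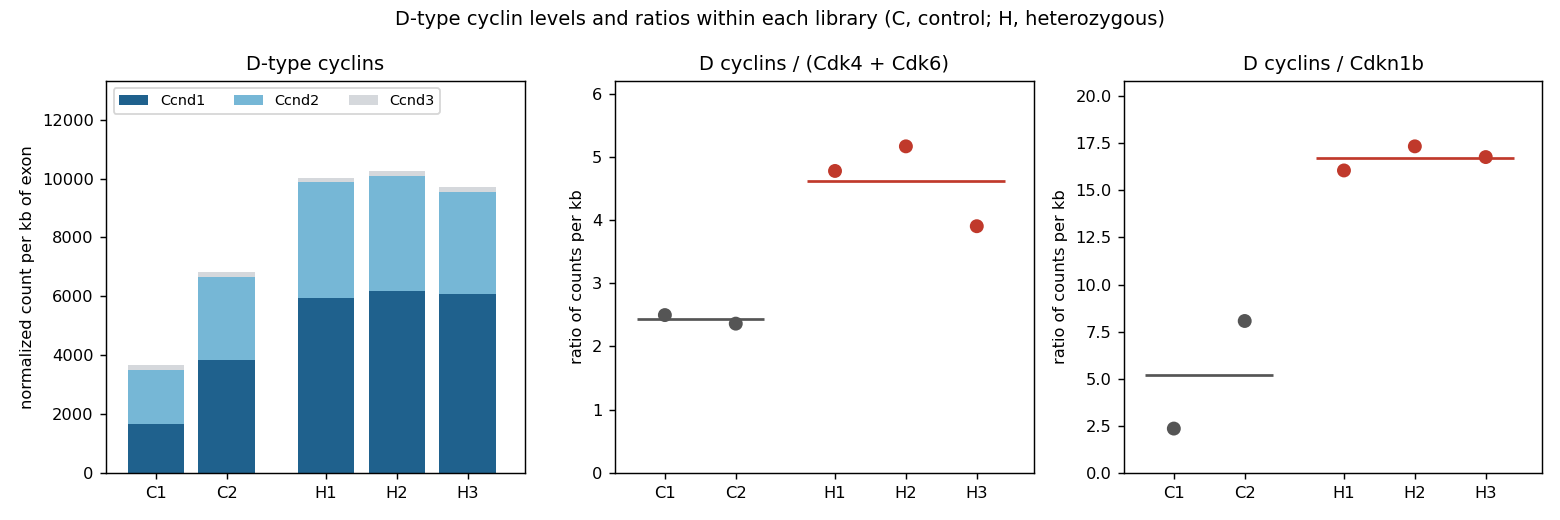
Left, normalized counts per kilobase of exon of Ccnd1, Ccnd2 and Ccnd3, stacked for each library (C1 and C2, control; H1 to H3, heterozygous); middle and right, ratio of their sum to that of Cdk4 and Cdk6 and to Cdkn1b in the same library, with lines at the group means and axes from 0. The ratio to the kinases is 2.50 and 2.36 in the controls and at least 3.90 in the heterozygous libraries, and the ratio to Cdkn1b is 2.35 and 8.06 against 16.1 to 17.3.

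Promoter windows of RefSeq (GRCm38.p6, 250 bases before to 50 bases after the annotated start) were found for 7 of the 10 genes, in 10 windows. Ccnd1, Ccnd2 and Ccne2 had no window in the table. Both stretches below hold the 250 bases before the RefSeq start, of which the last base for Cdk4 is exonic in GENCODE, and are shown because the groups differ in overlap for these genes: Cdkn1b was lower in each heterozygous library than in both controls, whereas the heterozygous values of Cdk4 lay between its controls. The stretch for Cdkn1b is chr6:134920151-134920400 on the + strand, with the GC-box GGGCGG in capitals, and that for Cdk4 is chr10:127063285-127063534 on the + strand, with the E-box CACGTG, in capitals.
Cdkn1b: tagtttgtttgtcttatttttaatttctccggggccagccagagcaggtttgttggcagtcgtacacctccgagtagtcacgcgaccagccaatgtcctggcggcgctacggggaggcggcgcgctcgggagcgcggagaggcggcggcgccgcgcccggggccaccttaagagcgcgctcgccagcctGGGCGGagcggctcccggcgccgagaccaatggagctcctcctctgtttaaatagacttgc
Cdk4: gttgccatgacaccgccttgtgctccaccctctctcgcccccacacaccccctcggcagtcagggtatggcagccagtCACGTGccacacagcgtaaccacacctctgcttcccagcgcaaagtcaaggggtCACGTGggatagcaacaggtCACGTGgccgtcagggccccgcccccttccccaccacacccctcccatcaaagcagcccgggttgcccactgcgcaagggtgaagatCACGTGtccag

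Words were searched on both strands, and positions give the first base of a match counted from the start site. The Cdk4 window held 4 E-box matches, at positions -172, -118, -98 and -11 from it. Of all 32851 promoter windows in the table, 7.15% held at least 1 E-box and 8 windows held 4 or more. Cdk6 and the downstream of 2 Cdkn2c starts had 1 E-box each. The GC-box stood once in the Cdkn1b window, at position -61, and in 35.7% of all windows. It was not particular to Cdkn1b. The Cdk4 window held 3, of which the 1 at -80 stands without capitals in the stretch above. Ccne1 and the upstream Cdkn2c start had 4 each, both Ccnd3 windows 2 each, and the Cdkn2a windows 3 and 1. Cdk6 and the downstream Cdkn2c start had none. The E2F words TTTCGCGC, TTTGGCGC, TTTCCCGC and TTTGCCGC matched 2.26% of all windows and 1 window of these genes, that of the upstream Cdkn2a start, at position -99. The forkhead word TGTTTAC, in 3.65% of all windows, matched only 1 of the 2 Ccnd3 windows. A match is a description of letters and not of binding.

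Cdk4 (chromosome 10 from 127063534 to 127067920, + strand), a kinase partner of the D-type cyclins, had more RNA per kilobase of exon than Cdk6 in every library. It had 4648 and 9184 normalized counts in controls against 6703, 6302 and 7961 in heterozygous ones. The controls lay on either side of all 3 heterozygous libraries. The log2 fold change was 0.09 (SE 0.29, 95% interval -0.61 to 0.79, limma adjusted p = 0.862), a range that allows neither direction to be named. Its sign depended on the control, being -0.40 without control replicate 1 (limma adjusted p = 0.0926) and 0.58 without control replicate 2 (limma adjusted p = 0.0105). Cdk4 overlaps Tspan31 on the other strand.

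Cdk6, the other partner of the D-type cyclins (chromosome 5 from 3341485 to 3531008, + strand), was at 585 and 881 in controls against 484, 609 and 546 in heterozygous ones. Control replicate 1 lay inside the heterozygous range and control replicate 2 above it. The log2 fold change was -0.40 (SE 0.22, 95% interval -0.92 to 0.12, limma adjusted p = 0.285). It was -0.70 without control replicate 1 (limma adjusted p = 0.0194) and -0.11 without control replicate 2 (limma adjusted p = 0.589). Per kilobase of exon Cdk4 was far above Cdk6 in every library, at 34.2 and 44.9 times in controls against 59.6, 44.6 and 62.8 times in heterozygous ones, with overlapping groups. Cdk6 overlaps 2 antisense genes.

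The E-type cyclins, which act at the step into S phase, differed mainly between the controls. Ccne1 (chromosome 7 from 38097984 to 38107534, - strand) had 141 and 538 normalized counts in controls against 550, 572 and 601 in heterozygous ones. Control replicate 1 stood far below the other 4 libraries, and control replicate 2 just under the heterozygous ones. The log2 fold change of 1.06 (SE 0.51, 95% interval -0.18 to 2.29, limma adjusted p = 0.243) was only 0.09 when control replicate 1 was left out, and 2.02 without control replicate 2 (limma adjusted p = 6e-05). Ccne2 (chromosome 4 from 11191351 to 11204779, + strand) had 122 and 555 in controls against 515, 436 and 492 in heterozygous ones. Here control replicate 2 was the highest of the 5 and control replicate 1 the lowest, and the log2 fold change of 0.88 (95% interval -0.51 to 2.27, limma adjusted p = 0.365) turned to -0.21 without control replicate 1. Without control replicate 2 it was 1.97 (limma adjusted p = 9.4e-05). Ccne2 overlaps Ints8 on the other strand.

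The 18 S phase genes known as E2F targets shared the pattern of Ccne2. None passed in limma, edgeR or DESeq2, and 0 had an unadjusted p under 0.05, although all 18 log2 fold changes were positive (median 0.53). In all 18, control replicate 1 was the lowest and control replicate 2 the highest of the 5 libraries, an order found in 10.6% of all genes tested. Mcm2, a subunit of the replicative helicase named here after its values were seen, had 659 and 3490 normalized counts in controls against 2395, 2371 and 2595 in heterozygous ones. Tyms, Cdc6 and Rrm2, which make nucleotides or load the helicase, had the smallest p of the list, with log2 fold changes of 1.04 (limma adjusted p = 0.385), 0.86 (limma adjusted p = 0.400) and 0.72 (limma adjusted p = 0.401). Without control replicate 1 no log2 fold change of the list was positive (median -0.46) and without control replicate 2 all 18 were (median 1.41).

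The 13 genes of G2 and M phase behaved likewise, with control replicate 1 lowest and control replicate 2 highest in 12. None passed in limma, edgeR or DESeq2, 0 had an unadjusted p under 0.05, and 8 log2 fold changes were positive (median 0.12). Mki67, the proliferation marker, also named after its values were seen, was at 3223 and 10453 in controls against 5982, 5604 and 5685 in heterozygous ones, a log2 fold change of -0.01 (95% interval -1.09 to 1.07, limma adjusted p = 0.989). It was -0.86 without control replicate 1 (limma adjusted p = 0.00267) and 0.84 without control replicate 2 (limma adjusted p = 0.000459). The 3 genes with the smallest p were Ccnb2, a B-type cyclin (-0.34, limma adjusted p = 0.400), the checkpoint kinase Bub1 (0.31, limma adjusted p = 0.664) and the transcription factor Mybl2 (0.33, limma adjusted p = 0.720). Without control replicate 1 the median of the list was -0.70 with no positive member, and without control replicate 2 it was 0.84 with all 13 positive. Ccnd1 and Ccnd2 did not follow this order of libraries. They were lowest in control replicate 1 as well, but control replicate 2 lay below and not above the heterozygous libraries. In RNA of whole cultures, fewer cells of a kind and less RNA per cell cannot be told apart.

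**Figure D3:**
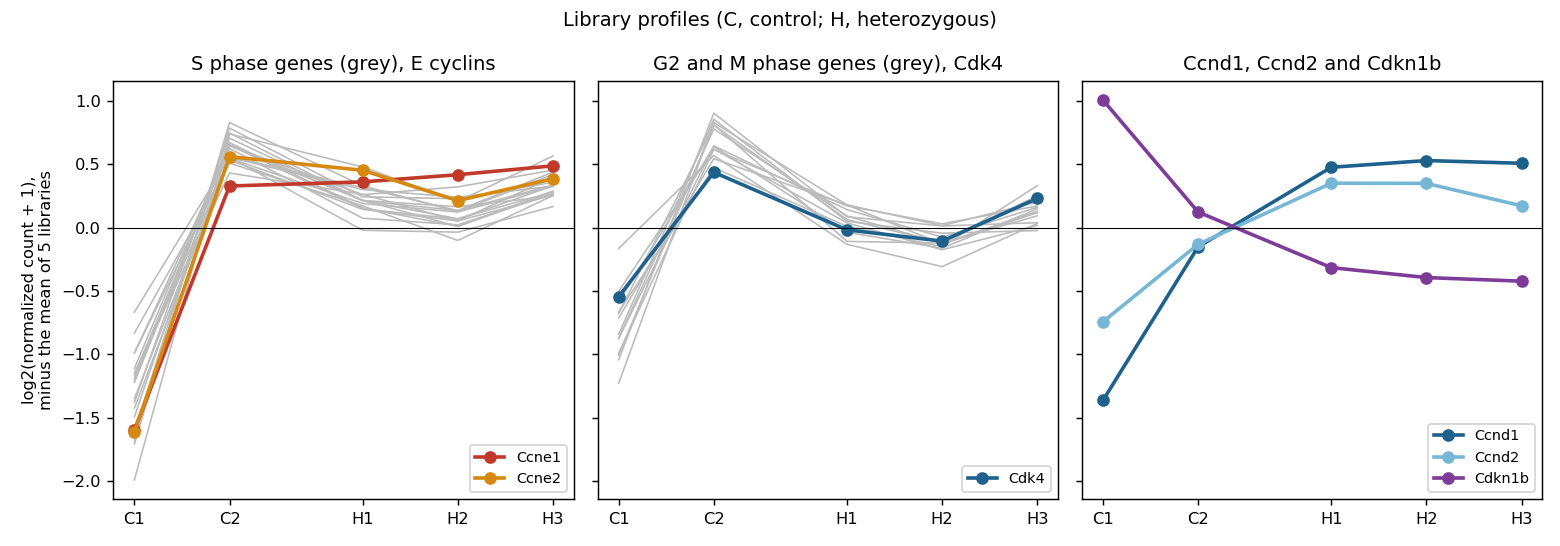
Each line joins the 5 values of 1 gene as log2(normalized count + 1) minus its mean over the libraries (C1 and C2, control; H1 to H3, heterozygous; the libraries have no order), with S phase genes (left) and G2 and M phase genes (middle) in grey. Ccne2 and Cdk4 share with the grey genes a low value in C1 and the highest in C2, whereas Ccnd1 and Ccnd2 are higher in H1 to H3 than in both controls and Cdkn1b is lower.

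Cdkn1b encodes p27, an inhibitor that accumulates as cells leave the cycle (chromosome 6 from 134920401 to 134925513, + strand). Its normalized counts were 7109 and 3851 in controls against 2840, 2690 and 2637 in heterozygous ones. The 3 heterozygous values were close together and below both controls, and control replicate 1 was 1.85-fold above control replicate 2. The means of 5480 ± 2304 (SD, n = 2) and 2722 ± 106 (SD, n = 3) gave a log2 fold change of -0.94 (SE 0.25, 95% interval -1.55 to -0.33, limma adjusted p = 0.0887). It was -0.50 without control replicate 1 (limma adjusted p = 0.0152) and -1.39 without control replicate 2 (limma adjusted p = 7.3e-05). For comparison, -0.93 with an adjusted p of 0.00506 stood in the authors' deposited table. No annotated gene overlaps Cdkn1b, so shared reads from an overlapping gene do not touch this value.

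Within each library, the summed D-type cyclin level per kilobase was 2.35 and 8.06 times that of Cdkn1b in controls against 16.1, 17.3 and 16.8 times in heterozygous ones. Every heterozygous ratio was far above both control ratios, and the controls themselves were far apart. The summed E-type cyclin level was 0.0563 and 0.427 times that of Cdkn1b in controls against 0.568, 0.575 and 0.633 times in heterozygous ones. In both ratios the groups did not overlap, and the exact permutation p (two-sided, one-sided p doubled) was 0.2, the value any ratio without overlap reaches.

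Cdkn2a, the locus of p16 and of p19Arf, which come from separate first exons (chromosome 4 from 89274471 to 89294653, - strand), had 325 and 551 normalized counts in controls against 308, 291 and 361 in heterozygous ones. Control replicate 1 lay among the heterozygous libraries and control replicate 2 above them. The log2 fold change was -0.41 (SE 0.26, 95% interval -1.03 to 0.21, limma adjusted p = 0.351), or -0.79 without control replicate 1 (limma adjusted p = 0.0170) but -0.03 without control replicate 2 (limma adjusted p = 0.907). Counts per gene do not tell the 2 products apart. Cdkn2c, which encodes p18 (chromosome 4 from 109660876 to 109667189, - strand), had 1528 and 2385 in controls against 1685, 1554 and 1774 in heterozygous ones. The controls enclosed the heterozygous values, and the log2 fold change of -0.19 (95% interval -0.69 to 0.30, limma adjusted p = 0.567) was -0.51 without control replicate 1 (limma adjusted p = 0.0197) but 0.13 without control replicate 2 (limma adjusted p = 0.378).

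**Figure D4:**
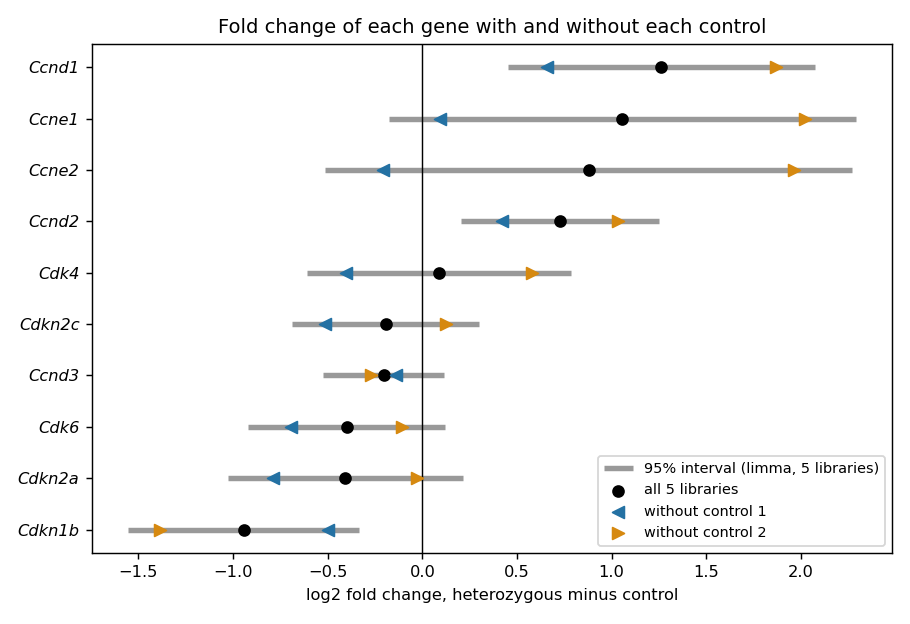
Log2 fold changes, heterozygous minus control, on the log2(normalized count + 1) scale (x axis) for the 10 genes (y axis): black points with grey 95% intervals from limma over 5 libraries, and triangles for the fits without control replicate 1 or 2. The intervals of Ccnd1, Ccnd2 and Cdkn1b lie to 1 side of 0, and Ccne2, Cdk4 and Cdkn2c have triangles on both sides of 0.

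Without control replicate 1, 5 of the 10 genes passed, against 16.8% of all genes (9.21% higher, 7.62% lower): Ccnd1 higher and Cdkn1b, Cdk6, Cdkn2a and Cdkn2c lower. Without control replicate 2, 6 passed, against 50.7% of all genes (27.2% higher, 23.5% lower): Ccnd1, Ccnd2, Ccne1, Ccne2 and Cdk4 higher and Cdkn1b lower. Ccnd1 and Cdkn1b were in both sets with the same sign, at 0.66 and 1.87 and at -0.50 and -1.39. The share of all genes in both sets is not given here, and both fits reuse the same 3 heterozygous libraries against 1 control.

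By mean level per kilobase of exon, Ccnd1 ranked first among the 10 and Ccnd2 second in both groups, followed by Cdk4. The single controls differed in this order. In control replicate 1 Ccnd2 (1842) was above Ccnd1 (1661), and in control replicate 2 Cdk4 (2827) was just above Ccnd2 (2815). Mean levels in controls were 2755 ± 1548 for Ccnd1, 2329 ± 688 for Ccnd2 and 2129 ± 987 for Cdk4 (SD, n = 2), which did not differ beyond their spread. In heterozygous libraries they were 6069 ± 112, 3779 ± 263 and 2151 ± 266 (SD, n = 3), so that each stood apart from the next. Cdkn1b came next in controls at 1204 ± 506, but after Cdkn2c in heterozygous libraries, at 598 ± 23.2, where Cdkn2c was at 622 ± 41.3 and the 2 overlapped within their spread. Cdkn2a followed in both groups. The lowest 4 places held Ccnd3, Ccne1, Ccne2 and Cdk6, with Cdk6 last at 52.4 ± 15.0 and 39.1 ± 4.45. With exon lengths of the basic annotation, Cdk4 stood just above Ccnd2 in controls, and Ccnd3 above Cdkn2a in both groups.

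Of 5 other CDK inhibitors, none passed in limma or edgeR, 1 had an unadjusted p under 0.05 and DESeq2 called 1, Cdkn1c (median log2 fold change -0.13). Cdkn1c, the p57 relative of Cdkn1b, had 356 and 89.4 normalized counts in controls against 36.2, 25.8 and 24.4 in heterozygous ones. As for Cdkn1b, both controls were above all heterozygous libraries and control replicate 1 was the highest. On the log2 scale the fold change stood at -2.61 (SE 0.58) with a limma adjusted p = 0.0643. Leaving out control replicate 1 gave -1.62 and leaving out control replicate 2 gave -3.60, and it passed with no filter on low genes (limma adjusted p = 0.0476). Cdkn1c overlaps an antisense gene. Cdkn1a, which encodes p21 and is a p53 target, was at 13826 and 9702 in controls against 12952, 14486 and 16591 in heterozygous ones, with overlapping groups (0.33, limma adjusted p = 0.329). Against control replicate 2 alone Cdkn1a was higher by 0.59 (limma adjusted p = 0.0323), and against control replicate 1 alone the value was 0.08. Cdkn2b, the neighbour of Cdkn2a, had a log2 fold change of -0.23 (limma adjusted p = 0.582), which turned to 0.18 without control replicate 1 and was -0.64 without control replicate 2 (limma adjusted p = 0.00443).

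Among the 7 genes of CDK2 and its activation (median 0.03), none passed in limma, edgeR or DESeq2, and 0 had an unadjusted p under 0.05. Cdk2, the kinase of the E-type cyclins, was at -0.27 (95% interval -0.72 to 0.17, limma adjusted p = 0.380). It was -0.54 without control replicate 1 (limma adjusted p = 0.0155) but -0.0014 without control replicate 2. The CDK-activating kinase subunits Ccnh and Mnat1 stood at 0.22 (limma adjusted p = 0.342) and -0.37 (limma adjusted p = 0.312). They were at 0.11 and -0.10 without control replicate 1, and without control replicate 2 at 0.34 (limma adjusted p = 0.0389) and -0.63 (limma adjusted p = 0.0127). Of 17 pocket protein, E2F and DREAM complex genes (median -0.03), none passed in any of these either, and 2 had an unadjusted p under 0.05. The retinoblastoma gene Rb1 was at -0.39 (limma adjusted p = 0.223), its relative Rbl2 at -0.65 (limma adjusted p = 0.138) and the E2F partner Tfdp2 at -0.48 (limma adjusted p = 0.123). These were -0.16, -0.34 and -0.58 (limma adjusted p = 0.0271 for Tfdp2) without control replicate 1, and without control replicate 2 they were -0.62 (limma adjusted p = 0.00446 for Rb1), -0.97 (limma adjusted p = 0.00151 for Rbl2) and -0.37. The heterozygous libraries were below both controls in 4 of the 17 genes, these 3 among them, a share close to the 23.3% of all genes. E2f1, the archetypal activator, was at 0.04 (95% interval -0.67 to 0.76, limma adjusted p = 0.933), a value that turned to -0.46 without control replicate 1 but was 0.55 without control replicate 2 (limma adjusted p = 0.0159).

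None of 11 genes for the turnover of G1 regulators (median 0.09) passed in limma or edgeR. Of the 11, 4 had an unadjusted p under 0.05 (26.1% of all genes) and DESeq2 called 2, Skp1a and Usp28 (14.4% of all genes). The smallest p belonged to Usp28, a deubiquitinase (-0.54, limma adjusted p = 0.0823), Skp1a, a subunit of the SCF ubiquitin ligase (0.49, limma adjusted p = 0.0893), and Rbx1, its RING subunit (0.34, limma adjusted p = 0.180). Without control replicate 1 they were at -0.43 (limma adjusted p = 0.0403), 0.43 (limma adjusted p = 0.0468) and 0.21 (limma adjusted p = 0.213), and all 3 passed without control replicate 2, at -0.66, 0.56 and 0.46. Of 4 Myc genes, Mycl fell and 3 did not pass, where 0.944% of all genes were called lower. Mycl, which encodes L-Myc, had 958 and 935 normalized counts in controls against 414, 405 and 403 in heterozygous ones. The controls lay close together, as the heterozygous libraries did, and the log2 fold change of -1.21 (SE 0.13) had a limma adjusted p = 0.0258. Leaving out control replicate 1 gave -1.20 and leaving out control replicate 2 gave -1.23. Mycl lost its call when any 1 heterozygous library was left out, fits that called at most 1 of all genes tested. The list had a median of 0.19.

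Marker genes of cell types also differed between the libraries. The 8 oligodendrocyte lineage markers summed to 52569 and 83283 in the controls and 57141 to 73119 in the heterozygous libraries. Of the 8, 1 fell, Sox10, and 7 did not pass, where 0.944% of all genes were called lower. DESeq2 called 5 of the 8. Among 10 neuron markers, 6 rose and 4 missed the threshold, where 1.9% of all genes were called higher. DESeq2 called 9 of the 10 (14.4% of all genes). In 9 of the 10 every heterozygous library was above both controls, as in 23.4% of all genes. The 10 summed to 19284 and 25406 in the controls and 31386 to 45280 in the heterozygous libraries. Of 10 progenitor markers none passed in limma or edgeR, 7 had an unadjusted p under 0.05 (26.1% of all genes) and DESeq2 called 7 (14.4% of all genes). They had no common direction: 4 log2 fold changes were positive and 6 negative (median -0.44). The groups did not overlap for 8 of the 10, 3 higher and 5 lower, against 46.7% of all genes. Nes was at 1.21 and Sox2 at -0.63. Their sums of 155217 and 170150 in the controls against 193246 to 224612 rest mostly on the abundant Vim, Fabp7 and Slc1a3. Of 6 astrocyte markers 1 fell, Aqp4, and 5 did not pass (0.944% of all genes were called lower), with sums of 81226 and 72894 against 46700 to 58177. DESeq2 called 2 of the 6. None of these 4 lists had a gene at 0 in any library. The 7 microglia and macrophage markers summed to at most 155 in any library, with Cx3cr1 and Tmem119 at 0 in some and 3 of the 7 tested, and the 6 fibroblast and endothelial markers to at most 435, with Cldn5 at 0 in control replicate 1. The part of cell makeup in the values of the 10 genes was not tested.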

How the data were processed

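The tools STAR and DESeq2 and the build mm10 are named per the submitters' processing notes. Versions, annotation, counting tool and strand setting: not given in the sources used here. Per library, the authors deposited a normalized signal, that is read counts per gene that the authors divided by 1 size factor per library. Within a tolerance of 0.001 read, 100% of values were whole multiples of 1 read. Further columns deposited by the authors are the log2 fold change, its standard error and Wald statistic (a score, not used here), and the p-value, raw and adjusted. edgeR on the recovered reads called 410 genes, 242 higher and 168 lower.

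Heterozygous (3) and control (2) libraries were compared with limma 3.58.1 (R 4.3.3, variance trend) on log2(normalized count + 1) over 16411 genes with a mean of at least 10, two-sided, Benjamini-Hochberg adjusted, at a threshold of 0.05. This scale understates the change of low genes. Named genes were the 10 members, Arid1b, list genes that passed (or the 3 with the smallest p), and Cdkn1a, Cdkn1c, Cdk2, Rb1 and E2f1. The members and lists were chosen with earlier results of these data known. Positions and exon lengths are from the GENCODE vM21 annotation (GRCm38), promoter windows from RefSeq (GRCm38.p6). Alternatives were TMM factors, quantile normalization, pseudocounts of 0.5 and 5, no filter, a mean of at least 50, edgeR 4.0.16, DESeq2 1.42.0, a replicate block and leaving out each library. The exon length alternative was added after seeing the data. limma was tested on simulated data. Depth per library is given in the report.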

Additional observations from a re-analysis of the deposited data

How the results depend on the processing

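The count of 0 of the 10 genes called held with TMM factors, quantile normalization, both other pseudocounts, no filter, a mean of at least 50, edgeR and the replicate block. It was 3 with DESeq2 and ranged from 0 to 6 with 1 library left out. The count of all genes called, 466, was 2320 with DESeq2, 1 with the replicate block, and 0 to 8320 with 1 library left out. Values for which leaving out 1 library turned the sign ranged from -0.21 to 1.97 for Ccne2, -0.40 to 0.58 for Cdk4, -0.51 to 0.13 for Cdkn2c, -0.49 to 1.12 for Bub1, -0.71 to 0.029 for Ccnb2, -0.30 to 2.03 for Cdc6, -0.64 to 0.18 for Cdkn2b, -0.46 to 0.55 for E2f1, -0.70 to 1.36 for Mybl2, -0.26 to 1.71 for Rrm2 and -0.32 to 2.41 for Tyms. Other settings turned the sign of genes near 0. With the replicate block, and without heterozygous replicate 3, Cdk4 was at -0.0076 and E2f1 at -0.014. These 2 fits give the same fold change by construction, since replicate number 3 occurs only in heterozygous replicate 3. With edgeR, E2f1 was at -0.042 and Mybl2 at -0.012, and with DESeq2 they were at -0.041 and -0.0077. The replicate number of the labels is not stated to mark a shared litter or day. Deviations of same-numbered libraries correlated at 0.028 and -0.040 across genes. With 2 controls their deviations mirror each other, so both values rest on 1 difference between controls and do not decide whether numbers mark a pairing. The block pairs libraries by number only. Under it Mycl lost its call (limma adjusted p = 0.127). Of 31 genes named, DESeq2 called 7 more than limma, with the same sign. TMM factors and quantile normalization moved the median of all genes by -0.012 each on the log2 scale. With exon lengths of the basic annotation, chosen after seeing the data, 13 of 20 group means of levels and ratios moved by more than 1 SD. Only 2 controls and 3 heterozygous libraries were available, and how much of the error comes from depth was not tested.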
